A study of Homo sapiens with 18 samples.

Results

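The genes of 9 proteins that myeloid cells pack into granules, MPO, AZU1, ELANE, PRTN3, CTSG, RNASE2, RNASE3, LYZ and SRGN, were followed through 18 libraries. They were picked by symbol from the 60609 gene identifiers of the count files. The libraries hold polyadenylated RNA of OCI-AML1, a human acute myeloid leukaemia line with genotype labelled WT, and all of them come from this 1 line. Each of DMSO, the solvent, and the compounds AML874 and SEL120-34A was applied for 8 h and for 24 h, which gives 6 groups of 3 libraries. SEL120-34A blocks CDK8 and CDK19, the kinases attached to Mediator, the complex through which transcription factors reach RNA polymerase II. AML874 is known here by its code name only, and the labels give no dose for either compound. They also do not say whether the 3 libraries of a group are separate cultures, so a p-value reflects only how far these libraries spread, which may be technical.

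Azurophil granules form at the promyelocyte stage and store proteins that neutrophils release to kill microbes. Their main cargo includes myeloperoxidase, a family of serine proteases and lysozyme, held together by the acidic chains of the proteoglycan serglycin. The genes of myeloperoxidase and the serine proteases are transcribed early in granulocyte development and are switched off before the granulocyte matures. Factors that act on them include PU.1, C/EBP proteins, RUNX1 and MYB. Many acute myeloid leukaemias keep part of this program, and myeloperoxidase is a classical diagnostic marker of them.

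The members sit in few places of the genome (GRCh38, GENCODE release 29). AZU1 (ENSG00000172232.10, chromosome 19, 825097 to 832018, plus strand), PRTN3 (ENSG00000196415.10, 840960 to 848175) and ELANE (ENSG00000197561.7, 851014 to 856247) lie side by side. CTSG (ENSG00000100448.4, 24573522 to 24576260, minus strand), RNASE2 (ENSG00000169385.3, 20955452 to 20956436) and RNASE3 (ENSG00000169397.3, 20891399 to 20892348) are on chromosome 14. MPO (ENSG00000005381.8) is on chromosome 17 at 58269856 to 58280935, minus strand. LYZ (ENSG00000090382.6) is on chromosome 12 at 69348341 to 69354234 and SRGN (ENSG00000122862.5) on chromosome 10 at 69088106 to 69104811. All 9 are protein coding.

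The promoters of 5 of the 9 members were in the RefSeq table (GRCh38.p14), each as 250 bases before to 50 bases after the transcription start. The proteases are shown because AZU1 and PRTN3 were lower with the compounds at 24 h where CTSG, of the same family, was higher. RNASE2 and RNASE3 are shown because they arose by gene duplication, with transcripts 88.9% identical over 720 aligned bases. Capitals mark matches to the C/EBP letters TTNNGNAA and the PU.1 letters GAGGAA on either strand. The windows are chr19:827587-827886 (plus) for AZU1, chr19:840749-841048 (plus) for PRTN3, chr14:24576201-24576500 (minus) for CTSG, chr14:20955237-20955536 (plus) for RNASE2 and chr14:20891135-20891434 (plus) for RNASE3. GENCODE lists protein-coding starts of AZU1 at 825097 and 827836, and only the later is in the window, which lies inside the gene as placed above. For PRTN3 it lists 840960 and 843341, and only the former is in the window. Positions of matches are counted from the RefSeq start, which follows the first 250 bases of a window. For PRTN3, CTSG, RNASE2 and RNASE3 the GENCODE protein-coding start is another base, from which the positions would differ.
AZU1: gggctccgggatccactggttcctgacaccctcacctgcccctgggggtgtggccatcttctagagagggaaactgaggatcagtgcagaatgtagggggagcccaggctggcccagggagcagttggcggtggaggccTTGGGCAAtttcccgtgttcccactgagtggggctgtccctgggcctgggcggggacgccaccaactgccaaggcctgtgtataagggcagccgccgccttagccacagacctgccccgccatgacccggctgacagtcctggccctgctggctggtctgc
PRTN3: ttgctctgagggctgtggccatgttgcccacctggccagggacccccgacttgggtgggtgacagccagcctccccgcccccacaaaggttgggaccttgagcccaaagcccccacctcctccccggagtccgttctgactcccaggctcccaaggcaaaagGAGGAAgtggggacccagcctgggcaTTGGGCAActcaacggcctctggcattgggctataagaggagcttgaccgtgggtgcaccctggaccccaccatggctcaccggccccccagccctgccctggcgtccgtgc
CTSG: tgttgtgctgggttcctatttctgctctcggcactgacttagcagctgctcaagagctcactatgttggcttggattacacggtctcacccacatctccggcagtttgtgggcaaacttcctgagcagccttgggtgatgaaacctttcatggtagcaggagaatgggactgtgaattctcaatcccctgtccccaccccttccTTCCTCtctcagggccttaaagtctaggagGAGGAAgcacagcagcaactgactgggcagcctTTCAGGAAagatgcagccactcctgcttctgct
RNASE2: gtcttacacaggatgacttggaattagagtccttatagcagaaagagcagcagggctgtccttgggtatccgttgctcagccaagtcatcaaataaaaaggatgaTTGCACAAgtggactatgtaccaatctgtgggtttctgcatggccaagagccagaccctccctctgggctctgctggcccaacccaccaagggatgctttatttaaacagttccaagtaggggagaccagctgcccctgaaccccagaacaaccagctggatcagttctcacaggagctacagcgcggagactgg
RNASE3: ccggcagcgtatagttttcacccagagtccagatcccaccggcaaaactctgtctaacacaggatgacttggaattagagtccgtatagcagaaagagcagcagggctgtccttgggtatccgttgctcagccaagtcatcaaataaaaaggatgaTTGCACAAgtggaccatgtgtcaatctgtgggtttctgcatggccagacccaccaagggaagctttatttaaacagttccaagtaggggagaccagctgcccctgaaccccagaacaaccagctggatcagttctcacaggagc

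The protease promoters AZU1 and PRTN3 both held TTGGGCAA on the gene's strand, at -111 and -62 from the RefSeq start. PRTN3 also had the PU.1 letters at -88. CTSG had the PU.1 letters at -46 on the opposite strand and at -16 on its own, and TTCAGGAA at 18 bases past the start. RNASE2 and RNASE3 shared TTGCACAA, a match on the opposite strand, at -145 and -94. Their windows were identical at 242 of 249 aligned bases (97.2%). No match overlapped another. Such matches are frequent: of 35116 promoters of this length, 36.8% held the C/EBP letters and 27.9% the PU.1 letters on either strand. TATAAA (11.5% of promoters), the RUNX letters TGTGGT (13.1%) and the MYB letters TAACNG (20.8%) were also searched and were in none of the 5 windows. A match is a run of letters and was not shown to be a binding site.

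The libraries held 98975944 to 142496541 reads counted in genes, and 20920 genes had enough counts to be tested. Of 8 markers of myeloid blasts, 6 were at 1 CPM (counts scaled to library size) or more in every group, with CD33 at a mean of 79.5 CPM, while ANPEP was at 0.0102 and KIT at 0.507 CPM. MPO and LYZ are themselves on that marker list. The defining monocyte markers CD14, S100A8, S100A9 and S100A12 were at 0.0374, 0.0574, 0.116 and 0.00203 CPM, and the neutrophil marker FCGR3B at 0.000391 CPM. Other markers of both lists were expressed. Of the 13 monocyte markers 4 were at 1 CPM or more with DMSO at 8 h and 5 in each other group. Of the 7 neutrophil markers 3 were at 1 CPM or more in every group. Summed over the whole lists, the 13 monocyte markers were at 159.4 to 171.7 CPM (DMSO), 126.2 to 131.5 (AML874) and 128.5 to 133.5 (SEL120-34A) at 8 h, and at 181.0 to 191.8, 119.7 to 123.4 and 157.6 to 159.2 at 24 h. The 7 neutrophil markers were at 149.6 to 153.6, 124.4 to 128.9 and 124.2 to 126.0 CPM at 8 h and at 162.0 to 167.4, 115.2 to 118.7 and 124.7 to 129.7 at 24 h. The lists for B cells, T and NK cells and red cells and platelets summed to at most 1.91, 93.4 and 2.67 CPM, with HBB, HBA1 and HBA2 at 0. Only 1 of the 6 T and NK markers was at 1 CPM or more in each group, and CD3G and CD2 had 0 counts in several groups. The part of these markers in the granule gene results was not tested. The AML874 24 h replicate 1 library held 56 counts of the epithelial gene EPCAM and 45 of KRT8, where no other library had above 3, and the changes with AML874 at 24 h are also given without it. In each group the library highest in the mean of 25 hypoxia-induced genes was compared with the group's median. The gap was largest in 4 groups, for replicate 3 of DMSO 8 h, 2 of SEL120-34A 8 h, 1 of DMSO 24 h and 2 of SEL120-34A 24 h. Results without these 4 were computed after this was seen. Below they are called highest in hypoxia-induced genes, which means within their groups and not among all 18 libraries. The SEL120-34A 8 h one was at 5.58 log2 CPM, where the DMSO 24 h libraries were at 5.97 to 6.24.

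Serglycin was the most abundant granule transcript, and AZU1, PRTN3 and ELANE were the least abundant in all 6 groups. Levels between genes are compared on TPM (transcript abundance scaled for gene length and depth), as the authors deposited them. With DMSO at 8 h the means were 2124.3 TPM for SRGN, 324.4 for LYZ, 137.5 for RNASE2, 16.1 for RNASE3, 8.76 for CTSG, 6.43 for MPO, 1.39 for AZU1, 0.457 for PRTN3 and 0.04 for ELANE. SRGN ranked between 70 and 108 among all genes by TPM in the 18 libraries and made 78.2 to 88.3% of the counts of the 9 members. The order was the same in all 3 groups at 8 h. At 24 h MPO with DMSO stood at 15.8 TPM, above RNASE3 at 11.3 and CTSG at 8.83, with no overlap of libraries. With both compounds at 24 h MPO was back below them, at 2.05 and 5.24 TPM, and CTSG and RNASE3 overlapped, with 11.1 against 10.9 TPM with AML874 and 11.3 against 10.4 with SEL120-34A. PRTN3 and ELANE overlapped with SEL120-34A at 24 h, and every other pair of neighbours was separated in each group.

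**Figure D1:**
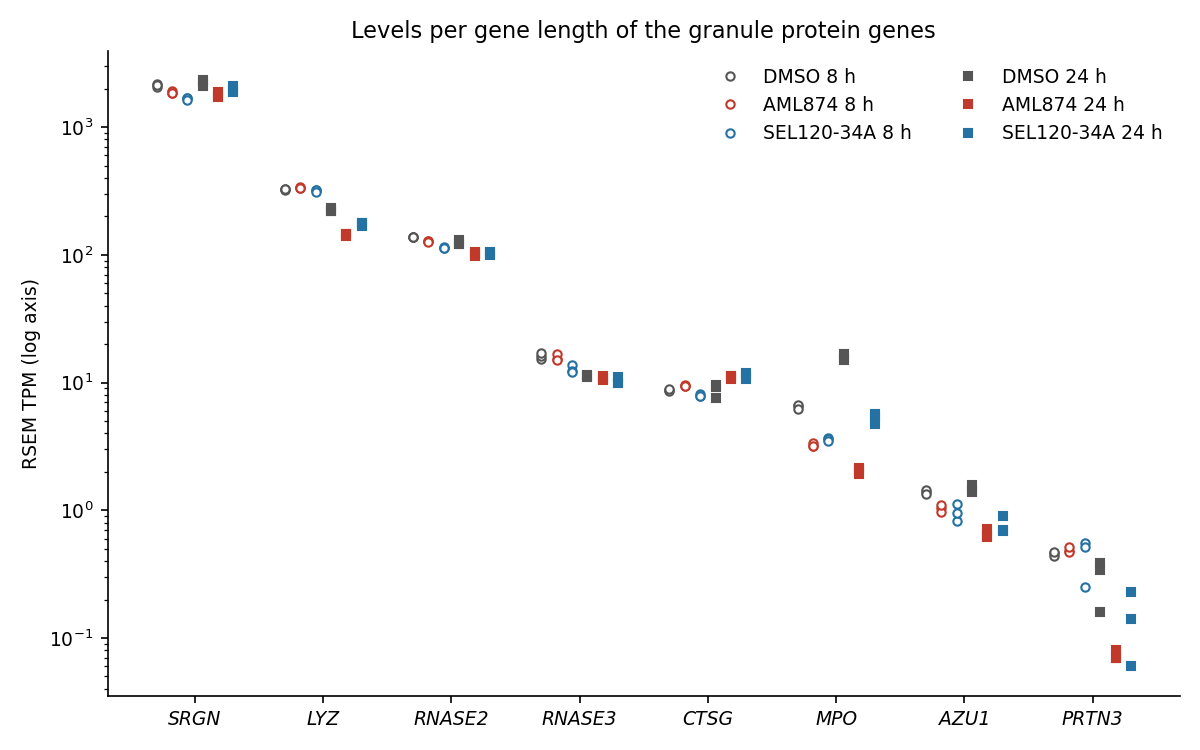
TPM of 8 granule genes in each of the 18 libraries on a log axis, with 1 symbol per library, colour for the compound with open circles for 8 h and filled squares for 24 h; ELANE, listed at 0 in several libraries, is left out. SRGN lies highest in every library, while MPO moves from 6.43 with DMSO at 8 h to 15.8 with DMSO at 24 h and 2.05 with AML874 at 24 h.

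Against DMSO, both compounds mostly lowered granule genes, and CTSG was the exception at 24 h. Calls required an adjusted p (Benjamini-Hochberg, over the 20920 genes) below 0.05, and 8 of the 9 members could be tested, since ELANE had too few counts. With AML874 at 8 h, 4 of 8 fell and 0 rose, where 39.6% of all genes were called, 19.7% higher and 19.9% lower. With AML874 at 24 h, 6 fell and 1 rose, against 46.8% of all genes called, 23.1% higher and 23.7% lower. With SEL120-34A at 8 h, 7 fell and 0 rose, against 45.1% called, 22.4% higher and 22.6% lower. With SEL120-34A at 24 h, 6 fell and 1 rose, against 37.7% called, 19.1% higher and 18.6% lower. The median log2 change of the 8 was -0.15, -0.42, -0.36 and -0.30 in the same order, where the median of all genes was 0.002, 0.004, -0.001 and 0.005. The 4 of 8 members called with AML874 at 8 h are close to the share of all genes called there. Both compounds are compared with the same DMSO libraries, so their values against DMSO are not independent. Without the 4 libraries highest in hypoxia-induced genes the calls were 4, 7, 6 and 7 in the same order, and without AML874 24 h replicate 1 they were 4, 7, 7 and 7. Without that library the log2 changes with AML874 at 24 h were -1.52 for AZU1, -2.25 for PRTN3, 0.44 for CTSG, -0.23 for RNASE2, 0.01 for RNASE3, -0.60 for LYZ and -0.28 for SRGN, with the same calls. In bulk RNA, fewer cells with a transcript and less transcript per cell cannot be told apart.

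**Figure D2:**
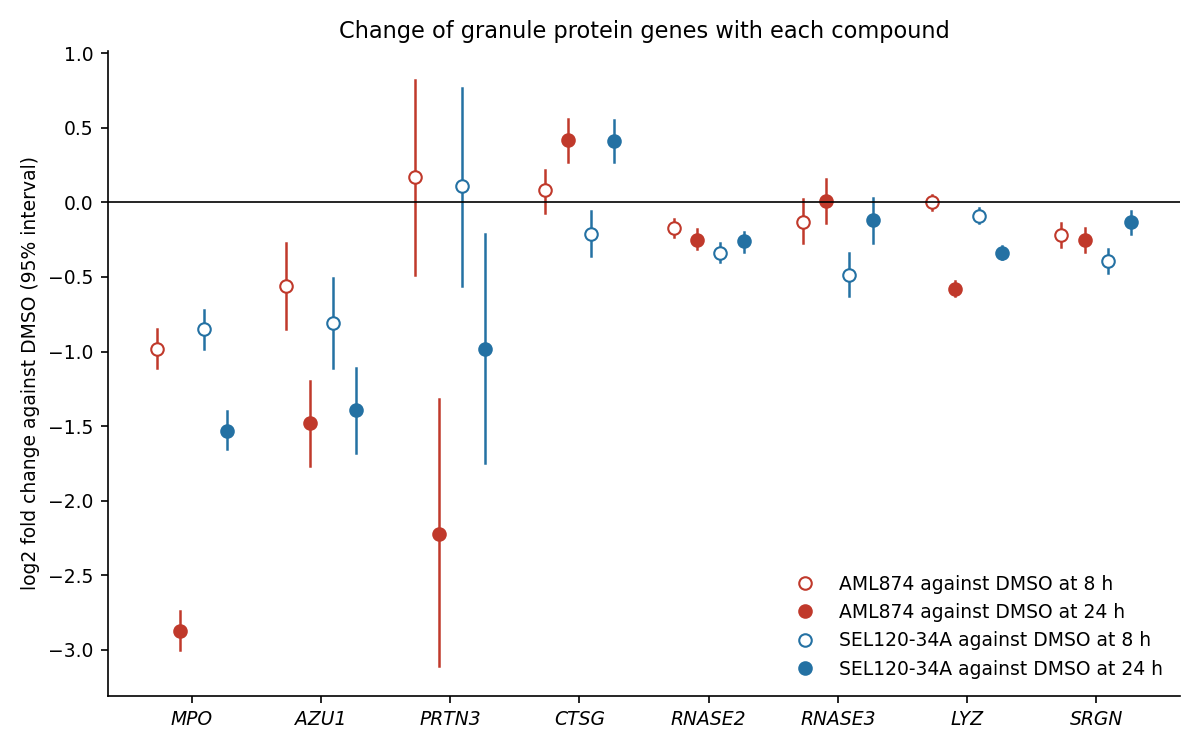
Log2 fold change against DMSO of the same time for 8 granule genes, with 95% confidence intervals; open circles are 8 h, filled circles 24 h, red AML874 and blue SEL120-34A. MPO, AZU1 and PRTN3 lie lowest at 24 h, CTSG alone lies above 0 with both compounds at 24 h, and the intervals of PRTN3 are the widest.

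MPO encodes myeloperoxidase, the haem enzyme that makes hypochlorous acid. Its transcript rose 2.34-fold from 8 h to 24 h with DMSO, and at each time it was lower with both compounds than with DMSO. At 8 h it stood at 14.6, 16.0 and 14.2 CPM with DMSO, at 7.55, 7.72 and 7.5 with AML874 and at 8.43, 8.23 and 8.17 with SEL120-34A. At 24 h it stood at 33.6, 37.6 and 33.7 CPM with DMSO, at 4.25, 5.07 and 5.07 with AML874 and at 12.6, 11.0 and 12.8 with SEL120-34A. Every DMSO library was above every library of either compound at the same time. The AML874 and SEL120-34A libraries were also apart at both times, although their difference at 8 h was not called (adjusted p = 0.161). With AML874 the transcript was 1.97-fold lower at 8 h (log2 change -0.98 ± 0.06 SE, adjusted p = 6.25e-14) and 7.31-fold lower at 24 h. With SEL120-34A it was 1.8-fold lower at 8 h (-0.85 ± 0.06, adjusted p = 1.02e-12) and 2.88-fold lower at 24 h. In DMSO it rose by 1.23 ± 0.06 on the log2 scale from 8 h to 24 h (adjusted p = 5.39e-17). The mean with AML874 was 7.59 CPM at 8 h and 4.79 at 24 h, and that with SEL120-34A was 8.28 and 12.1 CPM, and these pairs of times were not tested directly. Libraries high in hypoxia-induced genes tended to be low in MPO within their groups (r = -0.64 of deviations from the group mean over 18 libraries, which share group means and culture). Without the 4 libraries highest in those genes the change with AML874 at 24 h was -2.90, and without AML874 24 h replicate 1, the lowest of its group, it was -2.79.

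The serine proteases of azurophil granules split, with AZU1 and PRTN3 lower and CTSG higher at 24 h. AZU1 encodes azurocidin, a relative of elastase that has lost its catalytic activity and attracts monocytes. Its levels were 1.45, 1.5 and 1.35 CPM with DMSO, 0.957, 0.98 and 0.976 with AML874 and 0.938, 0.759 and 0.752 with SEL120-34A at 8 h. At 24 h they were 1.65, 2.13 and 2.44 CPM with DMSO, 0.774, 0.674 and 0.773 with AML874 and 0.878, 0.772 and 0.718 with SEL120-34A. The DMSO libraries were above all treated libraries at both times. AZU1 fell by 0.56 ± 0.14 on the log2 scale with AML874 at 8 h (adjusted p = 0.00174) and by 1.48 ± 0.14 at 24 h (adjusted p = 8.63e-11). With SEL120-34A it fell by 0.81 ± 0.15 (adjusted p = 2.52e-05) and 1.39 ± 0.14 (adjusted p = 5.53e-10). In DMSO it rose by 0.53 ± 0.13 from 8 h to 24 h (adjusted p = 0.00114), a rise that was 0.24 (adjusted p = 0.224) in the RSEM expected counts.

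PRTN3 encodes proteinase 3, the autoantigen of granulomatosis with polyangiitis, and had only 5 to 46 counts in a library. At 8 h there were 27, 32 and 31 counts with DMSO, 41, 35 and 34 with AML874 and 46, 20 and 34 with SEL120-34A. At 24 h there were 16, 34 and 33 counts with DMSO, 6, 5 and 5 with AML874 and 5, 13 and 20 with SEL120-34A. In CPM the AML874 libraries were below all DMSO libraries at 24 h, and the SEL120-34A libraries overlapped them. The fall with AML874 at 24 h was 4.65-fold (log2 change -2.22 ± 0.44, adjusted p = 7.31e-05). The change with SEL120-34A at 24 h was -0.98 ± 0.38 (adjusted p = 0.039). That call was lost in the model of only the groups compared (adjusted p = 0.0803), with unstranded counts (0.0631), with RSEM counts (0.0581), and without DMSO 24 h replicate 2 (0.145), DMSO 24 h replicate 3 (0.138) or SEL120-34A 24 h replicate 1, which gave -0.60 (0.242). At 8 h the changes were 0.17 ± 0.32 with AML874 and 0.11 ± 0.33 with SEL120-34A, neither called (adjusted p = 0.734 and 0.825).

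CTSG encodes cathepsin G, the chymotrypsin-like protease of the set, and was the member that rose. At 8 h it stood at 5.0, 5.13 and 5.05 CPM with DMSO, 5.37, 5.2 and 5.46 with AML874 and 4.38, 4.35 and 4.42 with SEL120-34A. At 24 h it stood at 4.25, 4.88 and 5.24 CPM with DMSO, 6.22, 6.53 and 6.44 with AML874 and 6.65, 5.98 and 6.47 with SEL120-34A. All 6 treated libraries at 24 h were above all 3 DMSO libraries, by 1.34-fold with AML874 (log2 change 0.42 ± 0.07, adjusted p = 6.01e-06) and 1.33-fold with SEL120-34A (0.41 ± 0.07, adjusted p = 1.18e-05). At 8 h SEL120-34A gave a fall of 1.15-fold (-0.21 ± 0.07, adjusted p = 0.02) and AML874 a change of 0.08 ± 0.07 that was not called. The fall at 8 h was lost when library totals alone set the scale (-0.14, adjusted p = 0.129), without DMSO 8 h replicate 2 (adjusted p = 0.0504) and without the 4 libraries highest in hypoxia-induced genes (adjusted p = 0.0528).

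ELANE encodes neutrophil elastase and was at the edge of detection. It had 3, 2 and 2 counts with DMSO, 0, 0 and 1 with AML874 and 1, 3 and 3 with SEL120-34A at 8 h. At 24 h there were 0, 8 and 7 counts with DMSO, 0, 0 and 0 with AML874 and 5, 1 and 2 with SEL120-34A. The 0 counts with AML874 at 24 h allow up to 0.00819 CPM over the group, taking 3 counts as the limit, which covers counting error only. DMSO at 24 h was at 0.0373 CPM over the group, 4.55-fold above that limit, although 1 of the 3 DMSO libraries was also at 0. The 4.55 leaves out the counting error of the DMSO counts and the spread between libraries, so it is not a lower bound of the fall. It was outside the genes tested, and with no filter on low counts that difference had an adjusted p of 0.00919, while with SEL120-34A at 24 h it was 0.751.

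**Figure D3:**
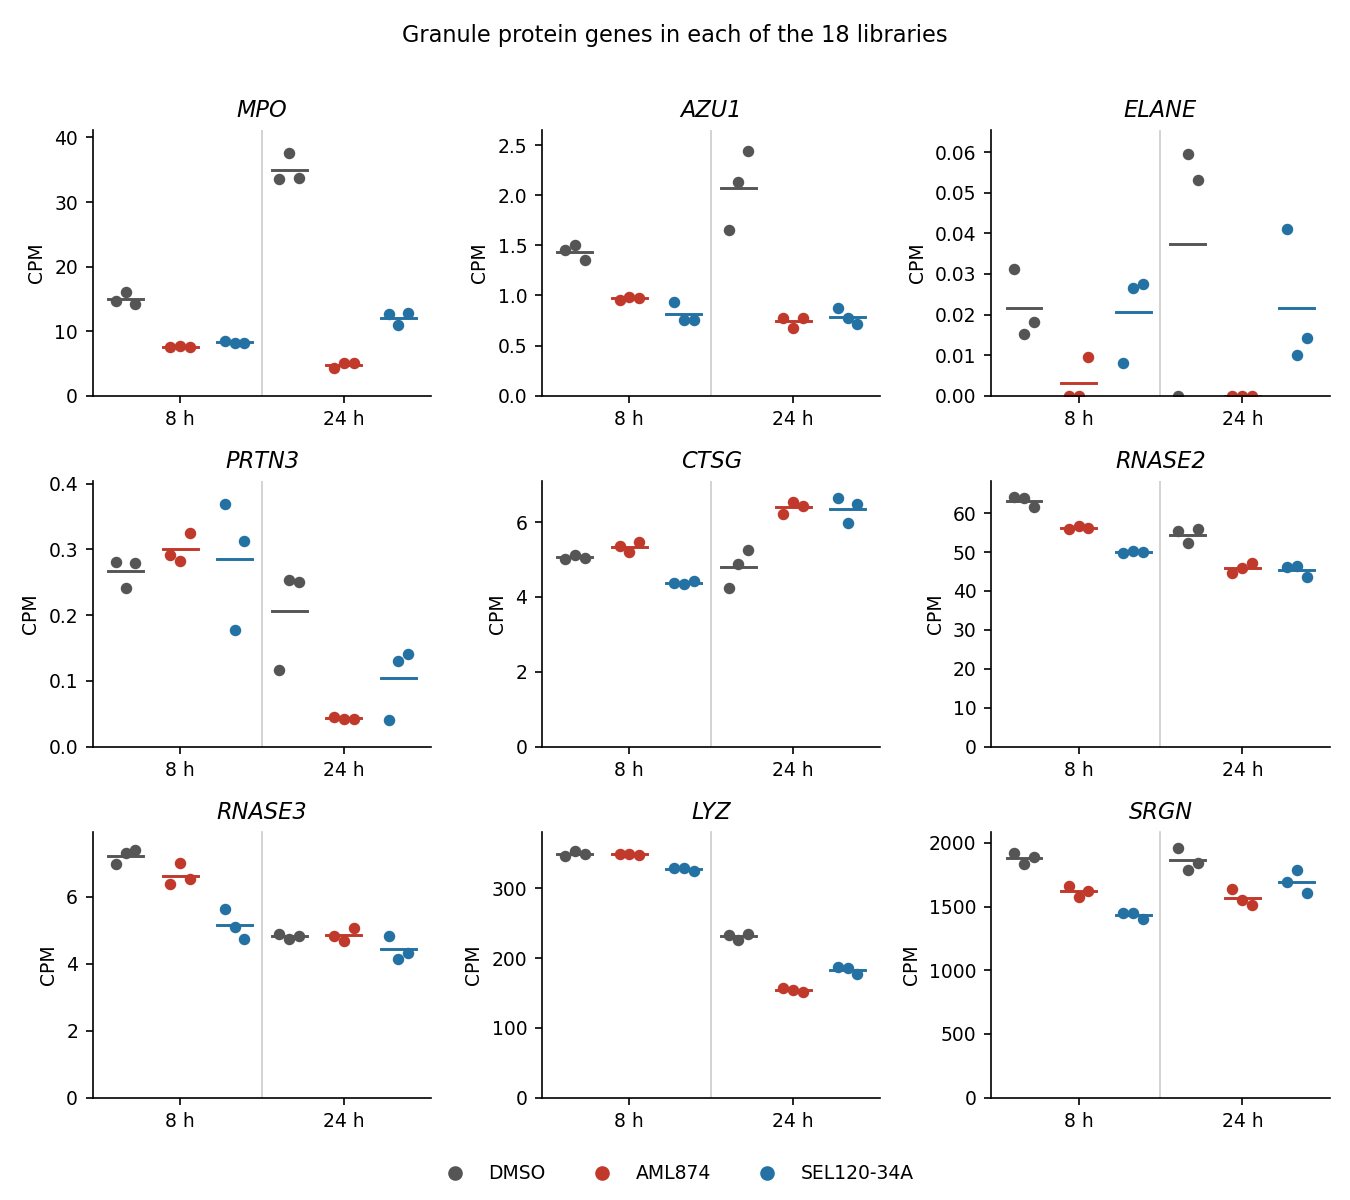
CPM of each granule gene in the 18 libraries, 1 point per library and a line at the group mean, with 8 h left and 24 h right of the grey line in each panel; each panel has its own linear axis from 0. MPO with DMSO at 24 h lies between 33.6 and 37.6 CPM, above all other libraries, and CTSG with both compounds at 24 h lies above its DMSO libraries.

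Of the ribonucleases, RNASE2 fell in all 4 comparisons with DMSO and RNASE3 in 1. RNASE2 encodes the eosinophil-derived neurotoxin and RNASE3 the eosinophil cationic protein, which arose by gene duplication. RNASE2 ranged from 61.5 to 64.1 CPM with DMSO, 55.9 to 56.6 with AML874 and 49.8 to 50.3 with SEL120-34A at 8 h, and from 52.4 to 55.8, 44.7 to 47.2 and 43.7 to 46.4 at 24 h. No treated library overlapped the DMSO libraries of its time. It fell by 0.17 ± 0.03 and 0.25 ± 0.03 on the log2 scale with AML874 at 8 h and 24 h and by 0.34 ± 0.03 and 0.26 ± 0.03 with SEL120-34A (largest adjusted p = 3.33e-05).

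RNASE3 stood at 6.96, 7.3 and 7.4 CPM with DMSO, 6.37, 6.99 and 6.52 with AML874 and 5.62, 5.1 and 4.74 with SEL120-34A at 8 h. At 24 h it stood at 4.89, 4.74 and 4.83 CPM with DMSO, 4.82, 4.67 and 5.05 with AML874 and 4.83, 4.15 and 4.32 with SEL120-34A. Only SEL120-34A at 8 h was apart from its DMSO libraries, with a fall of 1.4-fold (log2 change -0.49 ± 0.07, adjusted p = 7.06e-07). The other changes were -0.13 (95% interval -0.27 to 0.02) and 0.01 (-0.14 to 0.16) with AML874 at 8 h and 24 h and -0.12 (-0.27 to 0.03) with SEL120-34A at 24 h, none of them called. In DMSO RNASE3 was 1.5-fold lower at 24 h than at 8 h (adjusted p = 2.08e-08), and RNASE2 was 1.16-fold lower (adjusted p = 7.11e-07). The 2 transcripts are 88.9% identical over 720 aligned bases, and 3.13% of the 50-base stretches of RNASE3 are also in RNASE2, so a small part of the reads could not be told apart.

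LYZ encodes lysozyme, which cuts the peptidoglycan of bacterial walls, and fell with both compounds at 24 h. At 8 h it stood at 345.8, 353.2 and 348.9 CPM with DMSO, 348.5, 349.7 and 348.0 with AML874 and 328.8, 329.6 and 324.5 with SEL120-34A. At 24 h it stood at 233.7, 225.7 and 234.3 CPM with DMSO, 157.0, 154.7 and 151.3 with AML874 and 187.2, 185.3 and 177.4 with SEL120-34A. At 8 h AML874 and DMSO overlapped (log2 change 0.00 ± 0.02), and at 24 h the 3 groups were apart from each other. The fall at 24 h was 1.5-fold with AML874 (-0.58 ± 0.02, adjusted p = 2.9e-20) and 1.26-fold with SEL120-34A (-0.34 ± 0.02, adjusted p = 1.54e-13). SEL120-34A at 8 h gave -0.09 ± 0.02 (adjusted p = 0.00173), a call that was lost when library totals alone set the scale (-0.03, adjusted p = 0.384). LYZ also fell in DMSO, by 0.60 ± 0.02 from 8 h to 24 h (adjusted p = 9.28e-20). An antisense gene overlaps LYZ, and the unstranded counts of LYZ were 0.508 of the strand-specific ones used here.

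SRGN encodes serglycin, whose sulphated chains bind the basic granule proteins, and was modestly lower with both compounds. At 8 h it stood at 1922.0, 1837.7 and 1892.3 CPM with DMSO, 1663.6, 1575.2 and 1626.5 with AML874 and 1450.8, 1448.3 and 1406.5 with SEL120-34A. At 24 h it stood at 1962.6, 1784.2 and 1841.3 CPM with DMSO, 1638.5, 1552.9 and 1515.9 with AML874 and 1696.6, 1786.4 and 1606.8 with SEL120-34A. The 3 groups were apart at 8 h, and at 24 h SEL120-34A overlapped both others. SRGN fell by 0.22 ± 0.04 and 0.25 ± 0.04 on the log2 scale with AML874 at 8 h and 24 h (adjusted p = 0.000103 and 1.61e-05). With SEL120-34A it fell by 0.39 ± 0.04 and 0.13 ± 0.04 (adjusted p = 3.7e-08 and 0.00774). From 8 h to 24 h in DMSO the change was -0.02 (95% interval -0.10 to 0.06), not called. Libraries high in hypoxia-induced genes tended to be high in SRGN within their groups (r = 0.59 of deviations over the 18 libraries), and without the 4 highest the changes with AML874 were -0.21 at both times.

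Where the compounds differed at 8 h the member was higher with AML874, and where they differed at 24 h it was lower, with LYZ and SRGN called at both times. At 8 h, 5 of 8 members were higher with AML874 than with SEL120-34A and 0 were lower, where 31.2% of all genes were called, 16% higher and 15.2% lower. RNASE3 had the largest of these differences (log2 difference 0.36 ± 0.07, adjusted p = 0.000144), then CTSG (0.29 ± 0.07, adjusted p = 0.00228), SRGN (0.18 ± 0.04), RNASE2 (0.17 ± 0.03) and LYZ (0.09 ± 0.02). MPO at 8 h differed by -0.13 (95% interval -0.26 to 0.01), AZU1 by 0.24 (-0.07 to 0.55) and PRTN3 by 0.06 (-0.59 to 0.71), none called. At 24 h, 3 of 8 were lower with AML874 and 0 were higher, against 19.6% of all genes called, 8% higher and 11.6% lower. MPO was 2.54-fold lower with AML874 than with SEL120-34A (-1.34 ± 0.07, adjusted p = 1.77e-15), LYZ 1.19-fold lower (-0.25 ± 0.02, adjusted p = 2e-09) and SRGN 1.08-fold lower (-0.11 ± 0.04, adjusted p = 0.0422). The call of SRGN was lost under 5 of the 10 other settings and without any 1 library (adjusted p up to 0.176) other than DMSO 24 h replicate 1 or 2, AML874 24 h replicate 1 or SEL120-34A 24 h replicate 3. It was also lost without the 4 libraries highest in hypoxia-induced genes (-0.07, adjusted p = 0.153). PRTN3 had a difference of -1.24 (-2.24 to -0.23) that was not called (adjusted p = 0.0759), but was called without SEL120-34A 24 h replicate 1 (adjusted p = 0.0184) and with unstranded counts (0.0298). The intervals of AZU1 (-0.41 to 0.23), CTSG (-0.14 to 0.14), RNASE2 (-0.05 to 0.08) and RNASE3 (-0.02 to 0.28) held 0. The 2 compounds were compared at 2 times, with p-values adjusted over all genes of each comparison, and since no doses are given, equal dosing cannot be assumed.

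**Figure D4:**
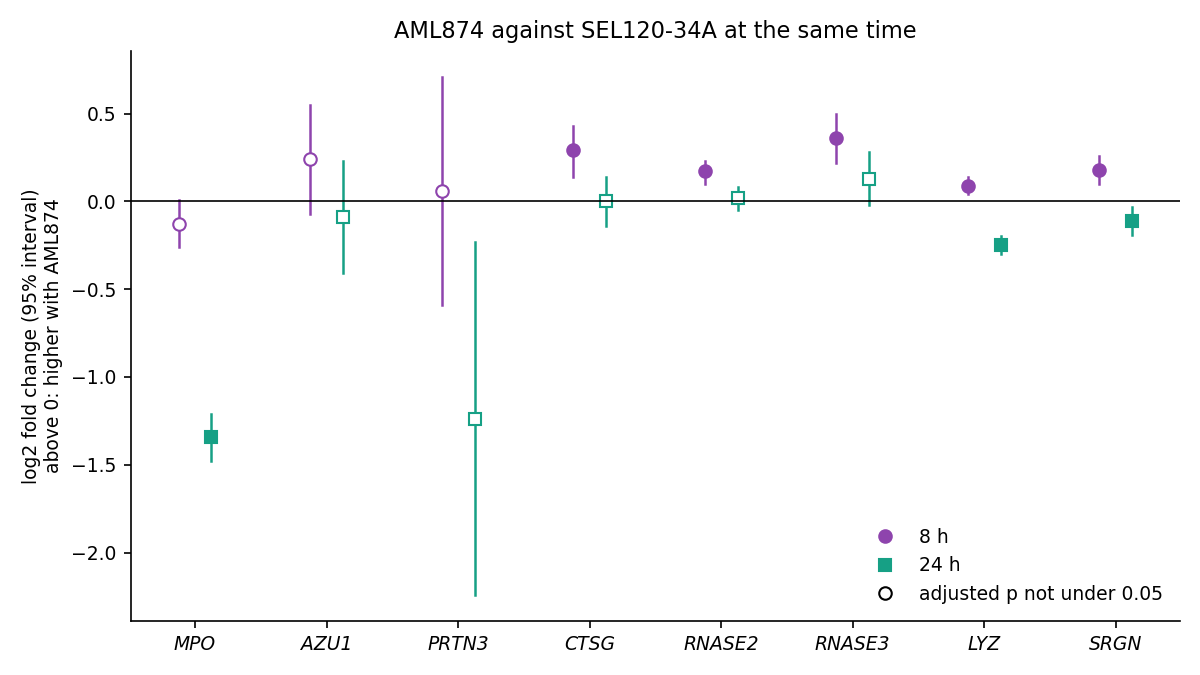
Log2 fold change of AML874 against SEL120-34A for 8 granule genes at 8 h (purple circles) and 24 h (green squares), with 95% confidence intervals; filled symbols have an adjusted p under 0.05. Values above 0 mean higher with AML874, as for RNASE3 (0.36) and CTSG (0.29) at 8 h, and MPO at 24 h lies at -1.34.

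In DMSO 5 of 8 members differed between 24 h and 8 h, 2 higher and 3 lower at 24 h. Of all genes 42.5% were called there, 19.8% higher and 22.7% lower. Of the 25 hypoxia-induced genes 11 were higher and 0 lower in DMSO at 24 h, and their part in these differences was not tested. MPO and AZU1 rose and LYZ, RNASE3 and RNASE2 fell, as given above. The effect of AML874 at 24 h was compared with its effect at 8 h, and it differed for 5 of 8 members, lower for 4 and higher for 1, against 23.6% of all genes, 12.5% lower and 11.1% higher. The 1 higher was CTSG, whose call was lost without the 4 libraries highest in hypoxia-induced genes (0.26, adjusted p = 0.0625), which left 4 lower and 0 higher. PRTN3 shifted by -2.38 ± 0.55 on the log2 scale and MPO by -1.89 ± 0.09 (adjusted p = 3.89e-16). The effect of SEL120-34A differed between the times for 6 of 8 members, 3 higher and 3 lower, against 27.3% of all genes, 14.2% higher and 13% lower. Without the 4 libraries highest in hypoxia-induced genes it was 7, with PRTN3 at -1.82 (adjusted p = 0.0124) against -1.08 with all libraries (0.109). PRTN3 was also called without SEL120-34A 8 h replicate 2 (-1.33, adjusted p = 0.0466) and without DMSO 24 h replicate 1 (-1.37, 0.0363). CTSG (0.62 ± 0.10), RNASE3 (0.37 ± 0.10) and SRGN (0.26 ± 0.05) shifted up, and MPO (-0.67 ± 0.09), AZU1 (-0.59 ± 0.21) and LYZ (-0.24 ± 0.03) down. The difference between the compounds changed with time for 5 of 8 members, all toward lower with AML874, against 17.7% of all genes called, 10.7% lower and 7.02% higher. These were MPO (-1.22 ± 0.09), LYZ (-0.34 ± 0.03), SRGN (-0.29 ± 0.05), CTSG (-0.28 ± 0.10) and RNASE2 (-0.15 ± 0.04). The count of 5 was 3 without AML874 24 h replicate 1, without AML874 8 h replicate 2 or without SEL120-34A 8 h replicate 1, where CTSG and RNASE2 were not called. The call of CTSG alone was lost without any 1 library (adjusted p up to 0.117) other than DMSO 24 h replicate 1 or 3 or SEL120-34A 24 h replicate 2. CTSG was also not called with a filter of 1 CPM in 3 libraries (adjusted p = 0.053), no filter (0.0831), a replicate block (0.0524) or RSEM counts (0.0742). With library totals alone neither CTSG (0.0874) nor RNASE2 (0.0551) was called.

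Several other classical azurophil genes were at or near 0. Of 8 further azurophil genes only 4 could be tested, since the defensin genes DEFA1, DEFA1B and DEFA3 had a mean of 0.0 CPM and DEFA4 of 0.000787. Against DMSO 1 of 4 rose and 2 fell with AML874 at 8 h, 0 and 1 at 24 h, 0 and 2 with SEL120-34A at 8 h, and 1 and 1 at 24 h. For this list and those that follow, 39.6, 46.8, 45.1 and 37.7% of all genes were called in that order. Called higher were 19.7, 23.1, 22.4 and 19.1% of all genes, and called lower 19.9, 23.7, 22.6 and 18.6%. CD63, a granule membrane protein, fell in all 4 comparisons, for example by 0.27 ± 0.03 on the log2 scale with either compound at 24 h. BPI, which binds bacterial endotoxin, rose by 0.33 ± 0.08 with SEL120-34A at 24 h (adjusted p = 0.00078) and had -0.12 ± 0.08 with AML874 (not called). PRSS57, a further serine protease of these granules, was at a mean of 40.8 CPM and fell with SEL120-34A at 8 h by 0.16 ± 0.03, with no call in the other 3 comparisons. RNASE6, a ribonuclease related to RNASE2, was at 0.148 CPM and fell with AML874 at 8 h by 1.07 ± 0.40.

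Of the content of later granules, 7 of 16 genes could be tested. LTF, CAMP, LCN2, MMP8 and MMP9, the classical contents of specific and gelatinase granules, were at 0.00496, 0.0187, 0.0, 0.00401 and 0.000867 CPM. Against DMSO 1 rose and 2 fell with AML874 at 8 h, 1 and 3 at 24 h, and 2 and 2 with SEL120-34A at each time. CYBB, the membrane subunit of the phagocyte oxidase, rose in all 4 comparisons, by 0.53 ± 0.07 with AML874 at 24 h and 1.07 ± 0.07 with SEL120-34A. PTX3 and SLPI fell with both compounds at 24 h, SLPI by 1.07 ± 0.10 with AML874 and 0.47 ± 0.09 with SEL120-34A. TCN1, a vitamin B12 carrier, rose with SEL120-34A at 24 h by 1.78 ± 0.36.

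Granule genes of other lineages were few. Of 10 eosinophil, basophil and mast cell genes 3 could be tested, and EPX, PRG2 and CLC, the defining eosinophil genes, were at 0.0043, 0.0264 and 0.00285 CPM. None of the 3 was called with SEL120-34A at 8 h, 1 fell with it at 24 h, 1 rose with AML874 at 8 h and 2 fell with it at 24 h. TPSAB1, a mast cell tryptase, fell by 0.58 ± 0.10 with AML874 at 24 h and 0.65 ± 0.10 with SEL120-34A, and TPSB2 by 1.08 ± 0.39 with AML874 at 24 h. MS4A2, a subunit of the IgE receptor, rose by 1.59 ± 0.50 with AML874 at 8 h, at 0.18 CPM. Of 8 cytotoxic granule genes 2 could be tested, and in all 4 comparisons PRF1 rose, to no more than 0.336 CPM, and NKG7 fell.

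Lysosomal hydrolases found in azurophil granules, and genes that activate or inhibit the proteases, were mixed. Of 18 lysosomal hydrolases, 5 rose and 6 fell with AML874 at 8 h, 7 and 2 at 24 h, 8 and 7 with SEL120-34A at 8 h and 6 and 4 at 24 h. GAA, ARSA and MAN2B1 rose in all 4 comparisons, GAA by 0.39 ± 0.03 with AML874 at 24 h, while HEXA fell with both compounds at 8 h. Of 9 tested genes for activation or inhibition of the proteases, 1 rose and 2 fell with AML874 at 8 h, 2 and 2 at 24 h, 1 and 2 with SEL120-34A at 8 h and 3 and 3 at 24 h. CTSC, the peptidase that activates the granule serine proteases, fell in all 4, by 0.16 ± 0.03 and 0.13 ± 0.03 with AML874 and 0.21 ± 0.03 and 0.08 ± 0.03 with SEL120-34A. SERPINB1, an inhibitor of elastase and cathepsin G, fell at 8 h with both compounds and was not called at 24 h. SERPINB8 rose in 3 of 4 comparisons, and SERPINB10 rose with SEL120-34A at 24 h by 1.56 ± 0.10, from 2.12 to 6.26 CPM.

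Of 12 genes of haem synthesis and of the folding of MPO, 7 rose and 1 fell with AML874 at 8 h, 6 and 3 at 24 h, 4 and 4 with SEL120-34A at 8 h and 5 and 2 at 24 h. The share of all genes called was 39.6, 46.8, 45.1 and 37.7% in the same order. CALR, the chaperone that binds the MPO precursor, rose with AML874 at both times and with SEL120-34A at 24 h (0.50 ± 0.02) but fell with SEL120-34A at 8 h (-0.14 ± 0.02). UROS, an enzyme of haem synthesis, took the same directions, and CANX rose in 3 of 4. HSPA5 rose with AML874 at 8 h (0.14 ± 0.03) and fell in the other 3 comparisons. Of 14 tested genes that build the chains of serglycin, 3 rose and 5 fell with AML874 at 8 h, 6 and 6 at 24 h, 2 and 8 with SEL120-34A at 8 h and 5 and 5 at 24 h. FAM20B, a xylose kinase of chain synthesis, fell in all 4, as did B3GALT6 and CHPF2. CHST12, a chondroitin sulphotransferase, fell at 8 h and rose at 24 h with both compounds (0.44 ± 0.03 and 0.41 ± 0.03).

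Of 14 tested genes of granule formation and sorting, 6 rose and 5 fell with AML874 at 8 h, 4 and 7 at 24 h, 2 and 6 with SEL120-34A at 8 h and 2 and 7 at 24 h. SORT1, a sorting receptor, fell in all 4, by 0.60 ± 0.03 with AML874 at 24 h and 0.42 ± 0.03 with SEL120-34A. UNC13D, which primes granules for release, also fell in all 4, and RAB27A and M6PR fell with both compounds at 24 h.

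Among transcription factors known to act on granule genes, more fell than rose with AML874 at both times and with SEL120-34A at 8 h, and about as many did each with SEL120-34A at 24 h. Of 12 such factors, 2 rose and 9 fell with AML874 at 8 h, 2 and 8 at 24 h, 2 and 10 with SEL120-34A at 8 h and 5 and 6 at 24 h. The share of all genes called lower was 19.9, 23.7, 22.6 and 18.6% in the same order. The median log2 changes of the 12 were -0.19, -0.22, -0.18 and -0.13. SPI1, which encodes PU.1, fell in all 4 comparisons, from 207.3 to 171.2 CPM with AML874 at 24 h (-0.28 ± 0.03). CEBPA fell with AML874 by 0.35 ± 0.06 and 0.45 ± 0.06 at 8 h and 24 h and with SEL120-34A at 8 h by 0.16 ± 0.06, and was at -0.14 ± 0.06 with SEL120-34A at 24 h (not called). RUNX1 fell in all 4, between 0.13 ± 0.02 and 0.31 ± 0.02. NFE2 had the largest fall of the 12, by 1.03 ± 0.08 with AML874 at 8 h. IRF8, which favours monocytes over granulocytes, and ETV6 also rose in all 4, IRF8 by 0.66 ± 0.02 with AML874 at 24 h. Of 25 hypoxia-induced genes 0 rose and 11, 10, 9 and 8 fell in the same order of comparisons, against the shares of all genes called lower given above. The part of these genes in the results was not tested.

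**Figure D5:**
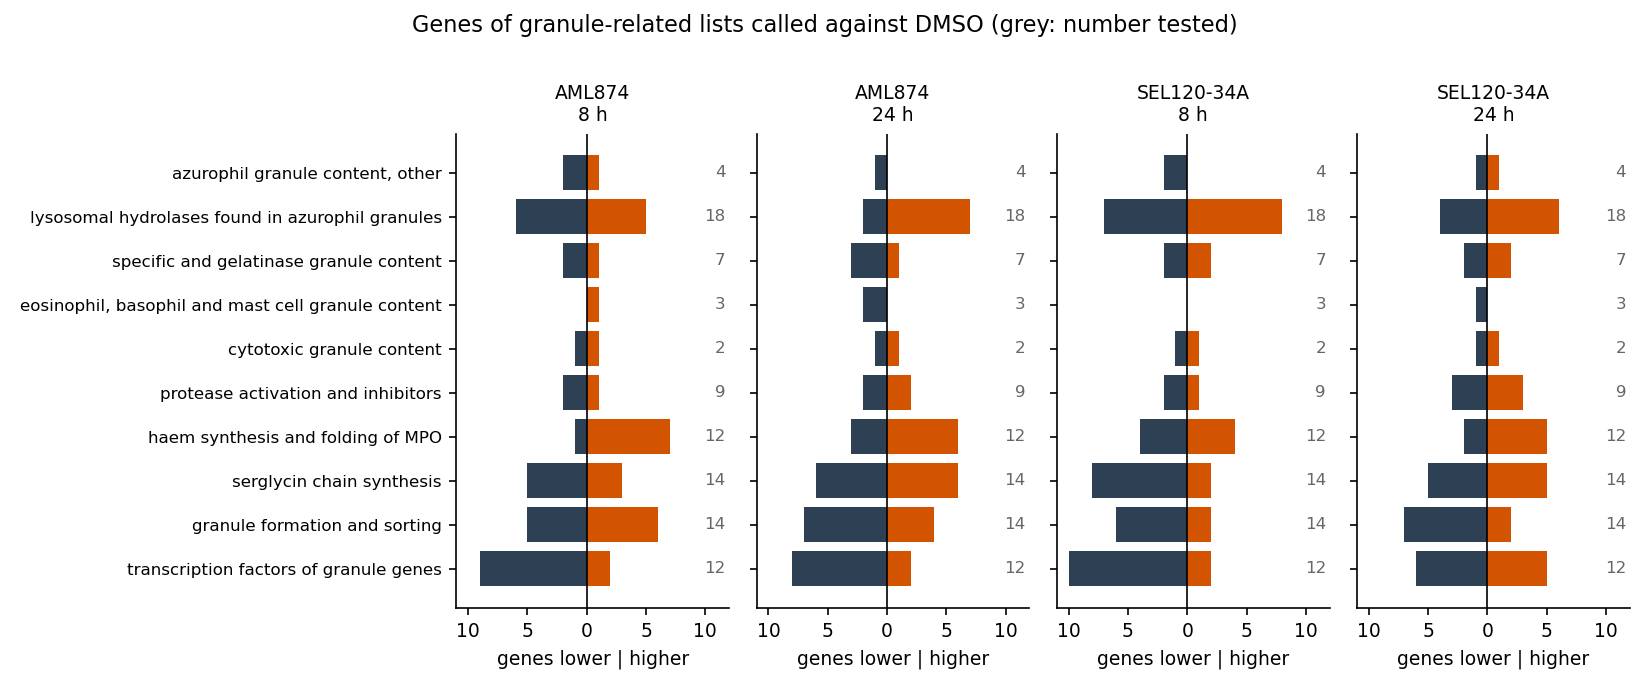
Number of genes called lower (left, dark) and higher (right, orange) against DMSO in 10 lists of granule-related genes, with the number tested in grey, 1 panel per compound and time. Transcription factors of granule genes lean to the left with AML874, 9 of 12 at 8 h and 8 of 12 at 24 h, and the lysosomal hydrolases lie on both sides. Of all genes, 19.9% were called lower with AML874 at 8 h and 23.7% at 24 h.

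The genes closest in pattern to each member were found by Pearson's r of log2 CPM over the 18 libraries, among 10491 genes with a mean of at least 5 CPM. Since the libraries share 6 group means, these values are a description. For MPO they were TRERF1 (r = 0.955), ANLN (0.945) and SOBP (0.945). For AZU1, BNIP2 (0.928) and CLDN12 (0.927) were among them. PRTN3 was closest to ZNF652 (0.95), TAOK2 (0.914) and FAM222B (0.9), and CTSG to ZNF7 (0.931), MCCC2 (0.922) and OXLD1 (0.921). RNASE2 was closest to LRPAP1 (0.971), IVNS1ABP (0.969) and NDST1 (0.965), and RNASE3 to PSMD4 (0.954), NIT2 (0.95) and IRAK1 (0.947). LYZ had the closest followers, RILPL2 (0.989), GAS2L1 (0.988) and PFDN2 (0.987), and SRGN had UBE2O (0.965), TMEM170B (0.951) and ZBTB45 (0.93). Among the members, the closest pairs were PRTN3 with LYZ (r = 0.87), MPO with AZU1 (0.86), RNASE2 with RNASE3 (0.84), RNASE2 with LYZ (0.78) and RNASE3 with LYZ (0.77), while CTSG ran against LYZ (-0.72) and PRTN3 (-0.70).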

How the data were processed

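The 18 libraries were made from polyadenylated RNA of OCI-AML1 cells, per the labels' protocols. The submitters' processing notes name STAR 2.7.1a, RSEM 1.3.2 and the build GRCh38, and the annotation release is not given in the sources used here. The authors deposited 1 table of read counts per gene and library, whose unstranded, forward and reverse columns follow STAR's format, and RSEM tables with expected counts and TPM. The reverse column was used, since its sum was 1.045 to 1.049 times that of the unstranded column, and the 4 summary lines, 21.94 to 25.52% of the reads, were left out. A gene with 0 counts may reach 0.0211 to 0.0303 CPM in a library, a limit of 3 counts for counting error only.

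Genes were filtered with filterByExpr, which left 20920 and removed 0.016% of the counts. After TMM scaling, 1 model of the 6 groups was fitted with edgeR 4.0.16, quasi-likelihood and robust, (R 4.3.3, 12 residual degrees of freedom), and p-values were adjusted by Benjamini-Hochberg over all genes of each of 10 comparisons. CPM are on the TMM scale, errors of log2 changes are standard errors and ± after a CPM is 1 SD. RSEM TPM served only for levels between genes. Promoters were read from RefSeq windows.

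Named were all 9 members, up to 4 genes of each of 18 lists by smallest p against DMSO, and the 3 genes most like each member called against DMSO. CEBPA, the epithelial genes and the untested genes given by level were named after their values were seen. A gene that the rule names is not reported here. The members and lists were chosen with earlier results of these data known. Alternatives were size factors of DESeq2, library totals alone, DESeq2 1.42.0, limma-voom (limma 3.58.1), a filter of 1 CPM in 3 libraries, no filter, a replicate block, unstranded counts, a model of only the groups compared, leaving out each library and RSEM expected counts after rounding. Figures were drawn with matplotlib 3.10.9 and tables made with pandas 2.3.3 (Python 3.11.15).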

Additional observations from a re-analysis of the deposited data

Results flagged for a closer look

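Effects that differed between the 2 times, by a test of the difference itself in the edgeR model, were found for 16 pairs of a gene and a contrast. The effect of AML874 at 24 h minus that at 8 h was -1.89 for MPO (adjusted p = 3.89e-16), -0.92 for AZU1 (0.000746), -2.38 for PRTN3 (0.00133), 0.34 for CTSG (0.0115) and -0.58 for LYZ (6.03e-15), on the log2 scale. The same difference for SEL120-34A was -0.67 for MPO (3.44e-07), -0.59 for AZU1 (0.0298), 0.62 for CTSG (1.25e-05), 0.37 for RNASE3 (0.00606), -0.24 for LYZ (9.64e-07) and 0.26 for SRGN (0.00104). The difference of AML874 from SEL120-34A at 24 h minus the same at 8 h was -1.22 for MPO (1.24e-10), -0.28 for CTSG (0.0471), -0.15 for RNASE2 (0.0166), -0.34 for LYZ (8.29e-09) and -0.29 for SRGN (0.000694). In that last contrast the calls of CTSG and RNASE2 were lost in several other fits, as given above. The call of CTSG for AML874 was lost without DMSO 24 h replicate 1 (adjusted p = 0.0519) and without the 4 libraries highest in hypoxia-induced genes (0.26, adjusted p = 0.0625). The call of AZU1 for SEL120-34A was lost with limma-voom (0.0544), with RSEM counts (0.193) and without DMSO 8 h replicate 3 (0.0679), SEL120-34A 8 h replicate 1 (0.127), DMSO 24 h replicate 2 (0.0607), DMSO 24 h replicate 3 (0.121) or SEL120-34A 24 h replicate 3 (0.0901).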

How the results depend on the processing

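Of 80 results, 8 members in 10 comparisons, 67 kept their side of the threshold in every one of the 29 other fits that gave a value, and no called change turned its sign, while several uncalled values near 0, such as PRTN3 with SEL120-34A at 8 h, did. The other 13 changed their call in some fit. The count of members for which the difference between the compounds changed with time was 5, and 3 with library totals alone. Leaving out 1 library gave 3 to 5 there. Ordering the members by strand-specific counts per effective length instead of TPM moved 2 of 54 ranks, CTSG and RNASE3 with AML874 at 24 h. With library totals alone, the share of called genes that were higher was 63.5% instead of 49.8% for AML874 at 8 h, 66.5% instead of 49.8% for SEL120-34A at 8 h, 57.1% instead of 46.7% for DMSO over time, 30.7% instead of 47.1% and 29.1% instead of 52.2% for the effects of AML874 and SEL120-34A over time, and 51.5% instead of 39.7% for the difference between the compounds over time.

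Replicate numbers are shared between groups, but only 7 of 45 same-numbered pairs had a correlation of deviations over 0.1 and 3 of 18 libraries were closest to their own number, so the numbers were not taken as pairs. With a replicate block the count of 5 became 4, where CTSG had -0.28 (adjusted p = 0.0524), and it changed no other call. PRTN3 was not tested with the filter of 1 CPM in 3 libraries, and DESeq2 gave it no adjusted p in 2 comparisons. Depth limits ELANE and PRTN3, while the other members had at least 77 counts in every library.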
